A study of Homo sapiens with 12 samples.

Results

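The mitochondrial respiratory chain genes described here are 48 nuclear genes that encode subunits of complexes I to IV and cytochrome c. They were taken as a given list, and their probes were found by matching the RefSeq transcript of each array probe to a gene symbol. All 48 were on the array, with 65 probes, among 20503 genes that could be named. The list holds 26 subunits of complex I, 4 of complex II, 7 of complex III (cytochrome c1, CYC1, included), cytochrome c itself (CYCS) and 10 of complex IV. NDUFA4 was counted with complex IV, as its current RefSeq symbol COXFA4 does.

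HA22T and PLC5 are established cell lines from human hepatocellular carcinoma (HCC). Each line was transfected with 10 nM of a non-targeting siRNA (siControl) or of a pool of siRNAs against GALNT1 (siGALNT1), with Lipofectamine RNAiMAX in both cases, and total RNA was taken after 48 h. GALNT1 encodes a Golgi enzyme that starts mucin-type O-glycosylation. Each of the 4 groups was measured on 3 single-color Agilent SurePrint G3 arrays, 12 in all. The knockdown is transient, and its controls share the transfection. No source used here says that replicates were separate cultures, so p-values measure only the spread between these samples, which may be technical.

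Complex I takes electrons from NADH and complex II takes them from succinate. Both pass them by ubiquinone to complex III, cytochrome c carries them on to complex IV, and complex IV reduces oxygen to water. Complexes I, III and IV pump protons, and the gradient drives ATP synthase. Hepatocytes are rich in mitochondria. The core of complexes I, III and IV is encoded partly in mitochondrial DNA and those genes were not analysed here, whereas all 4 subunits of complex II are nuclear. The nuclear genes are known targets of nuclear respiratory factor 1 (NRF1), of ETS family factors such as GABPA and of YY1.

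Promoter sequence, from 250 bases before to 50 bases after the start of the transcript, was found in RefSeq tables (assembly GRCh38.p14) for 42 of the 48 genes. It was not found for NDUFB5, NDUFB9, SDHC, UQCRB, CYC1 and COX6C. The 42 genes had 50 promoters. The NRF1 core GCGCATGCG, searched on both strands, was present in 6 of these promoters (12%), against 2.36% of 22180 promoters of all genes. By gene, it was in a promoter of 6 of the 42 (14.3%), against 3.11% of 15843. The windows of 30 bases around it are shown for 5 of these genes because it is the motif for which this family is best known, with the core or its reverse complement in capitals and each read 5′ to 3′ on the strand of the gene. For NDUFA8 the window around the core did not lie wholly before the start of the transcript, and it is not shown.

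SDHD (chr11:112086753-112086782, + strand): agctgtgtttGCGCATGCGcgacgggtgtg
NDUFA5 (chr7:123557957-123557986, - strand): tatgcccatcGCGCATGCGtcaatttttct
NDUFS6 (chr5:1801351-1801380, + strand): cagaagccgtGCGCATGCGttagcgctaag
COX6A1 (chr12:120437884-120437913, + strand): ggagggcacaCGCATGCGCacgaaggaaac
NDUFS7 (chr19:1383823-1383852, + strand): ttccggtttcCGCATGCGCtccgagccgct

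The ETS core CCGGAAGT was present in a promoter of 7 of the 42 genes (16.7%, against 6.97% of all genes), and the YY1 core AAGATGGC also in 7 (16.7%, against 4.66%). By promoter the shares were 14% against 5.34% for ETS and 14% against 3.53% for YY1. The Sp1 box GGGCGG was present in 27 of the 42 genes (64.3%, against 64.3% of all genes), and by promoter in 64%, against 56.3%. Both strands were searched for each, and no motif contains another. The NRF1 core is nearly its own reverse complement and can match both strands in almost the same place, as it did in SDHD. A match describes the letters only.

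Values are log2 signals minus the 75th percentile of the array in question, so 0 is the signal at that percentile and a difference of 1 is a doubling. A probe was counted in a comparison if 3 or more of the 6 arrays compared put it well above background, and it was called when its p-value from limma, adjusted by the Benjamini-Hochberg method over all counted probes, was below 0.05. Of 58717 spots on each array, from 36679 to 48873 passed that background test and 0 were saturated. The brightest counted probe stands for a gene. It was well above background on all 12 arrays for 46 of the 48 genes, and for NDUFB10 and COX5A it lacked a value on 1 HA22T array that was flagged. Slide 1 held all 6 HA22T arrays and both PLC5 arrays of replicate 1, and slide 2 held the remaining 4 from PLC5. The 2 lines stood apart in hepatocyte markers: 13 of 14 were well above background on all 6 PLC5 arrays, but 5 of 14 on all 6 HA22T arrays, and apolipoprotein H (APOH) was above background on 0 HA22T arrays. The summed hepatocyte marker level lay between 2.78 and 4.34 in the HA22T groups and between 7.62 and 8.27 in the PLC5 groups. The summed fibroblast list lay between 5.72 and 6.41 in HA22T and between 4.20 and 4.95 in PLC5, but its genes went both ways between the lines: with siControl VIM was lower in PLC5 (log2 difference -5.54) and FN1 higher (3.60), COL1A1 was above background on 5 PLC5 arrays and 1 HA22T array, and COL3A1 on 0 arrays of either. The summed epithelial markers (6.30 to 7.75 over all arrays) and the summed leukocyte and endothelial markers (4.62 to 6.05) overlapped between the lines. The latter sum was carried by PTPRC, the common leukocyte antigen, whose probe was well above background on all 12 arrays. Within that list 2 of 6 genes were called with siControl and 3 with siGALNT1, and with siControl PECAM1 was higher in PLC5 (5.41) and CD14 lower (-3.86). The part of these markers in the line differences below was not tested. In bulk RNA, fewer cells of one kind and less RNA per cell cannot be told apart.

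The targeted gene was read first. The brighter GALNT1 probe stood at 1.32, 0.75 and 0.85 on the HA22T siControl arrays and at -3.15, -3.68 and -5.55 on the siGALNT1 arrays. In PLC5 it stood at 0.87, 0.37 and 0.61 with siControl and at -1.93, -3.47 and -3.92 with siGALNT1. The groups were far apart in both lines, yet this probe was called in neither, at -5.10 (SE 0.61, adjusted p = 0.0708 from limma) in HA22T and -3.72 (SE 0.61, adjusted p = 1.00) in PLC5. The other GALNT1 probe (-4.75, SE 0.49, adjusted p = 0.0305 from limma) was the single probe called in the HA22T comparison, and it was not called in PLC5 (-3.03, adjusted p = 1.00). The rule that called 0 genes below thus missed the targeted gene itself in PLC5.

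With GALNT1 knockdown in HA22T no respiratory chain gene passed these tests. Of the 48 genes, 0 were called (0.00275% of all 36327 counted probes were). The criterion of the study, a fold of at least 1.5 with an unadjusted p below 0.05, was passed by 0 (2.87% of counted probes did). In limma 0 had an unadjusted p below 0.05, where 2.99% of counted probes did. The methods' t-test, which the study lists for its statistics in general without naming a test for the arrays, also passed 0. The differences, siGALNT1 minus siControl, ran from -0.46 to 0.55 on the log2 scale. Their direction was mostly downward, with 43 of the 48 lower, against 63.5% of all named genes, and a median of -0.16 against -0.10 for all named genes. The median was -0.17 over complex I, -0.17 over complex II, -0.16 over complex III and -0.14 over complex IV. With the 75th percentile taken without flagged spots, a scaling chosen after seeing the data, all named genes shifted to a median of 0.02, with 46.2% lower, and the 48 genes to -0.04, with 32 lower.

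The lowest values belonged to COX5B, a nuclear subunit of complex IV. It stood at 3.60, 3.28 and 3.52 on the HA22T siControl arrays and at 2.74, 3.07 and 3.20 on the siGALNT1 arrays. The siGALNT1 arrays all lay below the lowest control array, yet the difference of -0.46 had a 95% interval of -1.01 to 0.09 (adjusted p = 1.00 from limma). The exact two-sided permutation p was 0.1, which is the smallest that 3 arrays against 3 can give. NDUFB3, an accessory subunit in the membrane arm of complex I, stood at -0.85, -0.75 and -0.98 with siControl and at -1.67, -1.32 and -0.89 with siGALNT1. Here the groups overlapped through replicate 3, and the difference was -0.43 (95% interval -1.07 to 0.20). NDUFB5, of the same arm, stood at 1.02, 0.66 and 0.76 and then at -0.10, 0.55 and 0.78, a difference of -0.40 that a second NDUFB5 probe did not share (0.10). SDHD, a membrane anchor of complex II and one of the genes with the NRF1 core shown above, stood at 0.33, -0.16 and 0.26 and then at -0.47, -0.17 and -0.14. Its difference was -0.40 (95% interval -0.96 to 0.16), and the array values of both groups overlapped. In these 4 genes the lowest of the siGALNT1 arrays was always replicate 1.

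The largest rise in HA22T was in NDUFB10, another accessory subunit of the membrane arm of complex I. It stood at 3.78, 3.46 and 3.95 with siControl and at 4.25 and 4.30 on the 2 siGALNT1 arrays that gave a value. Both lay above all 3 control arrays, and the difference was 0.55 (95% interval -0.11 to 1.20, adjusted p = 1.00 from limma, exact two-sided permutation p = 0.2). The deviations of arrays with the same replicate number were correlated in HA22T, and with the replicate number as a block NDUFB10 passed the criterion of the study, at 0.66 (SE 0.23, unadjusted p = 0.0317 from limma). Then 1 member passed it in place of 0. NDUFB7, also of the membrane arm, stood at 5.00, 4.87 and 4.56 and then at 5.23, 5.01 and 4.61 (difference 0.14). NDUFA10, an accessory subunit of complex I, stood at 1.22, 0.32 and 0.46 and then at 0.83, 0.65 and 0.76 (difference 0.08). COX5A of complex IV stood at 1.19 and 1.07 on the 2 control arrays that gave a value and at 1.10, 1.27 and 1.20 with siGALNT1 (difference 0.06), where a second COX5A probe gave -0.36. For these 3 genes the groups overlapped. Over all 48 genes the groups did not overlap in 3, COX5B and COX7C below and NDUFB10 above, where 12% of all counted probes did not overlap.

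In PLC5 cells the same comparison called 0 of the 48 genes (0% of 38070 counted probes), and 0 passed the criterion of the study (1.29% of counted probes did). In limma 0 had an unadjusted p below 0.05, where 1.33% of counted probes did. The same t-test passed 0 as well. The direction leaned upward here, with 33 of the 48 higher, against 57.5% of all named genes, and the median was 0.06, against 0.04 for all named genes. In 0 of the 48 genes the groups were free of overlap, where 5.94% of all counted probes were. The largest rise was in UQCRFS1, the Rieske iron-sulfur protein of complex III, which stood at 3.08, 1.91 and 2.78 with siControl and at 3.18, 2.86 and 2.72 with siGALNT1. The difference of 0.33 (95% interval -0.35 to 1.01) rested on the low control replicate 2, without which it was -0.01. NDUFA5, an accessory subunit in the peripheral arm of complex I, stood at 0.19, -0.69 and 0.15 and then at 0.13, 0.28 and 0.09, a difference of 0.29 that was -0.00229 without the same array. NDUFA10 stood at 1.18, 0.93 and 1.08 and then at 1.60, 1.48 and 0.76 (difference 0.22), and NDUFV2, an iron-sulfur subunit of the NADH-oxidizing module, stood at 4.79, 4.15 and 4.46 and then at 4.95, 4.77 and 4.35 (difference 0.22). In all 4 genes arrays of both groups overlapped.

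The largest fall in PLC5 was in NDUFA9, an accessory subunit near the ubiquinone site of complex I. It stood at 0.24, -0.29 and -0.04 with siControl and at -0.55, -0.23 and -0.37 with siGALNT1, a difference of -0.35 (95% interval -0.90 to 0.20). NDUFA6, a small accessory subunit of complex I, stood at 2.15, 1.23 and 1.56 and then at 1.57, 1.65 and 1.03 (difference -0.23). NDUFB2 of the membrane arm stood at 2.48, 1.36 and 1.54 and then at 1.77, 1.85 and 1.22 (difference -0.18). The control array of replicate 1 was the highest of the controls in all 3 genes. UQCRQ, a small subunit of complex III, stood at 2.09, 1.20 and 1.89 and then at 2.02, 1.55 and 1.23 (difference -0.13). Groups overlapped in each of the 4 genes, and NDUFA6, NDUFB2 and UQCRQ were at 0.02, 0.17 and 0.05 without the control array of replicate 1.

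**Figure D1:**
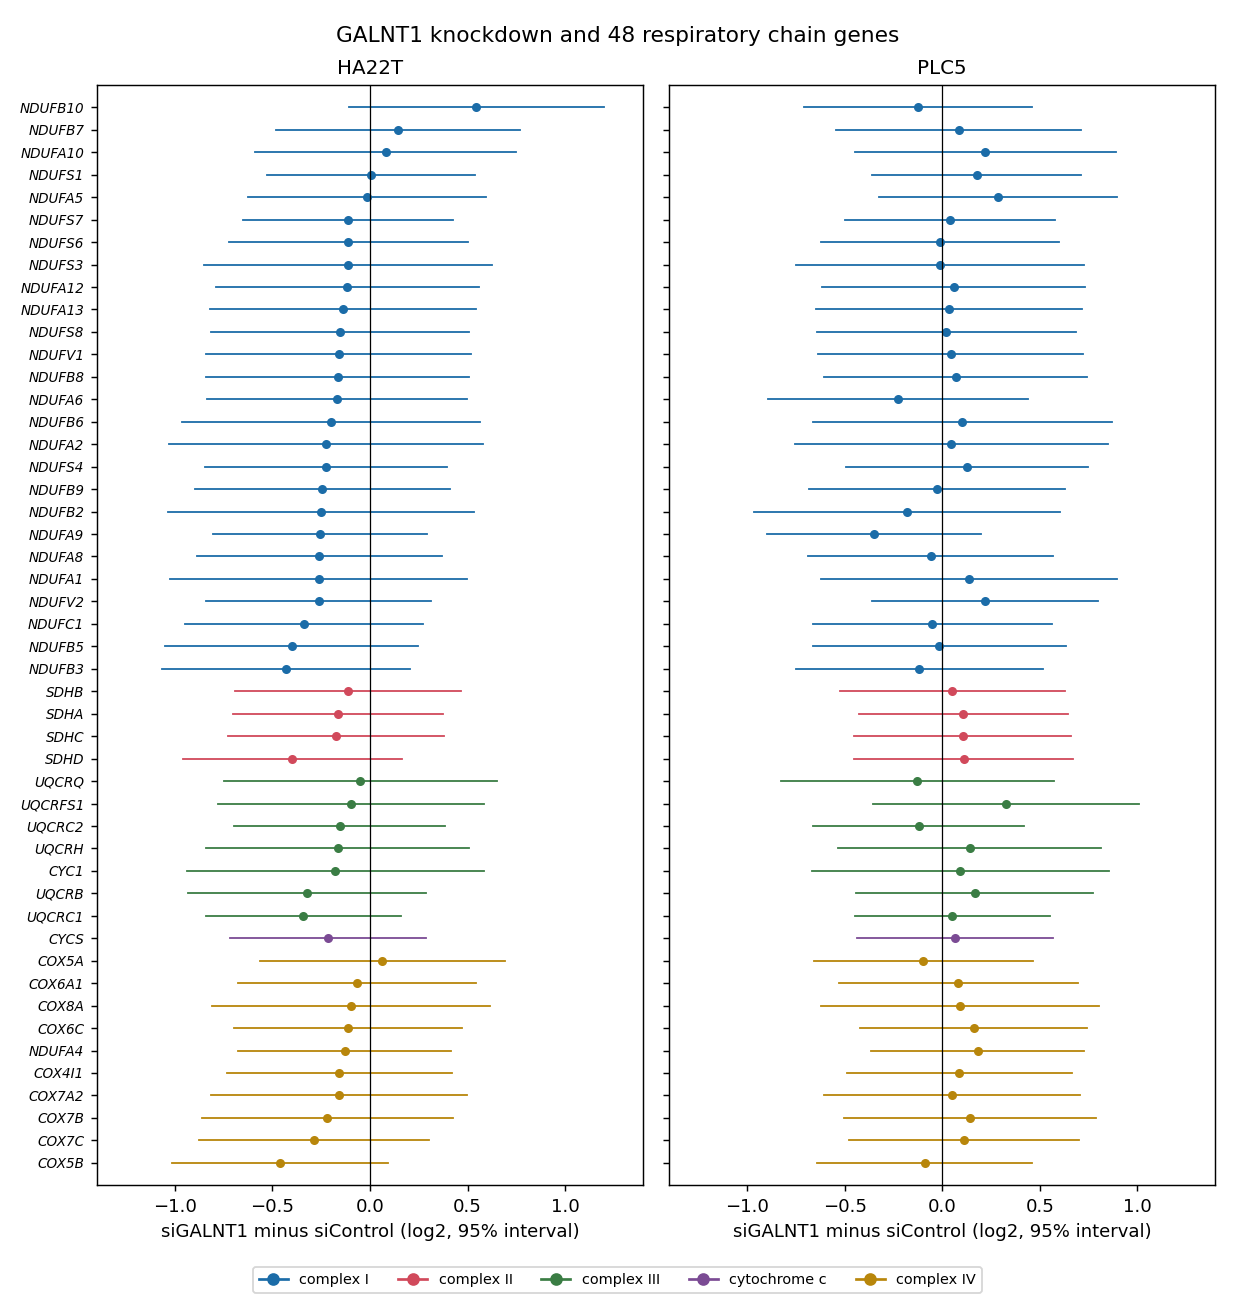
Difference between siGALNT1 and siControl arrays (log2, horizontal axis) for each of the 48 genes in HA22T (left) and PLC5 (right), colored by complex and ordered within it by the HA22T value. Points are limma estimates from 3 arrays a group (2 for NDUFB10 and COX5A in 1 HA22T group each) and lines are 95% intervals, which all cross 0.

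The change with knockdown was then compared between the lines, as PLC5 change minus HA22T change. Of the 48 genes 0 were called (0% of 39100 counted probes) and 0 had an unadjusted p below 0.05 in limma, where 952 of all counted probes did. This difference was positive in 42 of the 48 genes, against 63.1% of all named genes, with a median of 0.24 against 0.14. Without HA22T siGALNT1 replicate 1 it was positive in 38, against 61.3%, with a median of 0.11 against 0.13. The smallest p was that of NDUFB10 (difference -0.67, 95% interval -1.55 to 0.21, unadjusted p = 0.121 from limma). SDHD had the largest positive difference, at 0.51 (95% interval -0.28 to 1.30). Both intervals hold a 2-fold gap between the lines in the response, so the absence of calls does not show that the lines responded alike.

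The downward lean in HA22T rested most on 1 array and in part on another. On HA22T siGALNT1 replicate 1 the median of the 48 genes, each set against its own mean over 12 arrays, was -0.46, and 5 of the 48 were above their own mean. On replicates 2 and 3 of that group the median was -0.12 and 0.03. Without replicate 1, 27 of the 48 genes were lower and the median difference was -0.01, and it then lay above that of all named genes (-0.08). On that array the median of all named genes was 0.09, and 48208 of its spots were well above background, the most among the HA22T arrays. HA22T siControl replicate 1 had the highest median of the 48 genes in that line, at 0.20, with 32 above their own mean. Without it 35 of the 48 genes were lower with knockdown, against 54.9% of all named genes. The median difference was then -0.09, against -0.03. The highest medians were those of the replicate 1 arrays of PLC5, 0.31 with siControl and 0.32 with siGALNT1, and on each of them 38 of the 48 genes were above their own mean. These are the PLC5 arrays on slide 1, with 39450 and 39384 spots well above background. PLC5 siGALNT1 replicate 2 was close to them, at 0.29, on slide 2. The remaining PLC5 arrays lay between -0.25 and 0.07. Whether depth or slide had a part in these array medians was not tested. Without PLC5 siControl replicate 2, 13 of the 48 genes were higher with knockdown in PLC5, against 33 with all arrays, and without PLC5 siGALNT1 replicate 1 there were 21, without its replicate 2 there were 23, and without PLC5 siControl replicates 1 and 3 in turn there were 44 and 27. Without PLC5 siGALNT1 replicate 3 there were 42, and the median difference was 0.24 in place of 0.06.

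**Figure D2:**
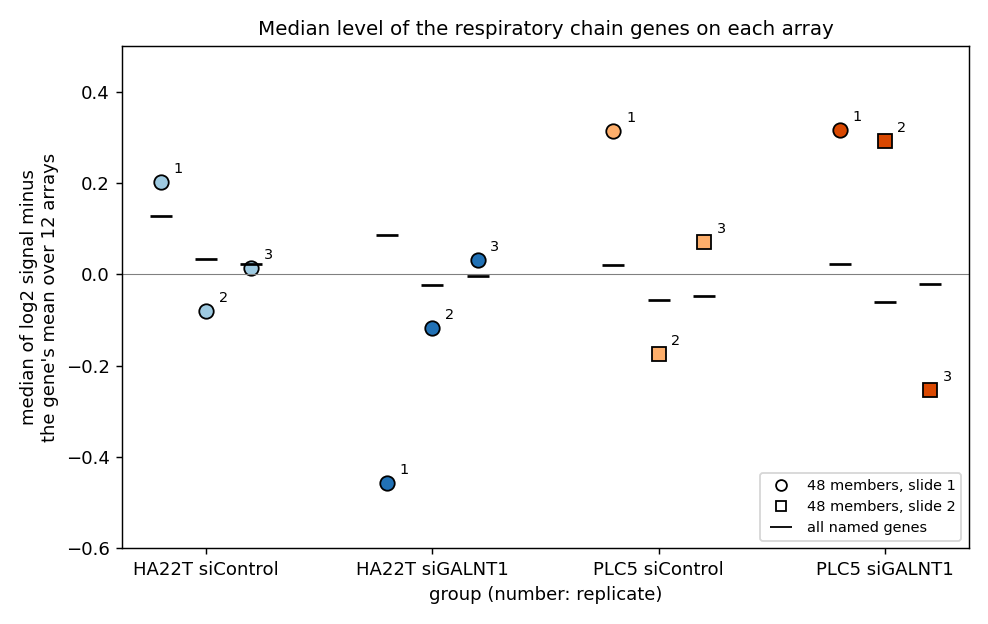
Median over the 48 genes of the log2 signal minus the gene's mean over 12 arrays (vertical axis), for each array by group, with circles for slide 1, squares for slide 2 and the replicate number beside each. Short black lines give the same median over all named genes. HA22T siGALNT1 replicate 1 is lowest, at -0.46, and the 2 PLC5 arrays on slide 1 are highest, at 0.31 and 0.32.

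The lines themselves differed in single subunits. With siControl, 8 of the 48 genes were called between PLC5 and HA22T (16.7%, where 22% of all counted probes were). Of these 6 were higher in PLC5 (11% of all counted probes were called higher) and 2 lower (11% were called lower). With siGALNT1, where the group means come from other arrays, 9 were called (18.8%, where 22.9% of counted probes were), 8 of them higher (13.1% of counted probes) and 1 lower (9.79%). Both comparisons took their spread from the same fit of all 12 arrays, so a call in both is not an independent repeat. Of 17403 named genes with siControl, 2156 were called higher and 2470 lower, and of 17187 with siGALNT1, 2576 and 1995. The share of members called was below that of all counted probes and that of all named genes (26.6%) in both comparisons. In both, 5 genes were called higher in PLC5, namely NDUFC1, NDUFS1, NDUFA9, SDHC and COX5A, and 1 was called lower, NDUFB5. Of all probes counted in both comparisons, 17.4% were called in the same direction in both, against 6 of these 48 genes. In all 11 genes were called in either comparison, 9 of them subunits of complex I. Complex I holds 26 of the 48 genes. Of these, 23.1% were called with siControl and 26.9% with siGALNT1, near the 26.6% of all named genes in each.

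Of 17 further counted probes of these genes, 11 had the sign of the probe used with siControl and 13 with siGALNT1. Probes of opposite sign belonged to NDUFA12, NDUFB8, SDHA, SDHD and CYCS with siControl and to NDUFA12, SDHA and UQCRH with siGALNT1, none of them called genes.

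The largest difference in either comparison was that of NDUFB5, an accessory subunit in the membrane arm of complex I. It stood at 1.02, 0.66 and 0.76 on the HA22T siControl arrays and at -1.09, -1.29 and -1.09 on the PLC5 siControl arrays. With siGALNT1 it stood at -0.10, 0.55 and 0.78 in HA22T and at -1.49, -0.72 and -1.30 in PLC5. Every PLC5 array lay below every HA22T array. The difference, PLC5 minus HA22T, was -1.97 with siControl (SE 0.30, adjusted p = 0.000543 from limma), or 3.91-fold, and -1.58 with siGALNT1 (SE 0.30, adjusted p = 0.00251). A second NDUFB5 probe was lower by a like amount, at -1.59 and -1.71 (adjusted p = 0.00105 and 0.000687 from limma). NDUFB5 was called in both comparisons under every alternative processing that was tried and without any single array. It was at -1.90 in both when only arrays of slide 1 were compared. That value sets 1 PLC5 array against 3 HA22T arrays for each siRNA, all of them also in the main comparison, and has no test. NDUFB9, of the same arm, was the other gene lower in PLC5. It stood at 6.35, 5.41 and 5.83 in HA22T and at 5.21, 4.66 and 4.73 in PLC5 with siControl, and at 5.60, 5.47 and 5.78 against 5.18, 4.74 and 4.59 with siGALNT1. The lines did not overlap in either comparison. NDUFB9 was 1.99-fold lower in PLC5 with siControl (SE 0.30 on the log2 scale, adjusted p = 0.0333 from limma) and 1.72-fold lower with siGALNT1 (log2 difference -0.78, SE 0.30, adjusted p = 0.0838). With the slide as a block the siControl difference of NDUFB9 shrank to -0.65 (adjusted p = 0.217).

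The subunits of complex I that were higher in PLC5 lie in different parts of the enzyme. NDUFS1 is the large iron-sulfur protein of the NADH-oxidizing module. It stood at 1.31, 1.35 and 1.30 in HA22T and at 2.45, 2.00 and 2.22 in PLC5 with siControl, and at 1.23, 1.46 and 1.28 against 2.64, 2.55 and 2.00 with siGALNT1. The lines were apart by 0.90 (SE 0.24, adjusted p = 0.0203 from limma) and 1.07 (SE 0.24, adjusted p = 0.00808) with no overlap, and both calls held with the slide as a block. NDUFV2 of the same module stood at 4.16, 3.68 and 3.87 against 4.79, 4.15 and 4.46 with siControl, where the lines just overlapped, and at 3.52, 3.65 and 3.75 against 4.95, 4.77 and 4.35 with siGALNT1, where they did not. Its difference was 0.57 (SE 0.26, adjusted p = 0.159 from limma) and then 1.05 (SE 0.26, adjusted p = 0.0140). The 2 differences of NDUFV2 were not themselves distinguishable (0.48, 95% interval -0.33 to 1.30).

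Nearer to the ubiquinone site, NDUFA9 stood at -0.63, -1.17 and -0.92 in HA22T and at 0.24, -0.29 and -0.04 in PLC5 with siControl, and at -1.21, -1.34 and -0.94 against -0.55, -0.23 and -0.37 with siGALNT1. No arrays of the lines overlapped, at 0.88 (SE 0.25, adjusted p = 0.0269 from limma) and 0.78 (SE 0.25, adjusted p = 0.0432). With the slide as a block NDUFA9 lost both calls (adjusted p = 0.0633 and 0.0815). NDUFA5, also of the peripheral arm, stood at -0.54, -0.82 and -0.73 against 0.19, -0.69 and 0.15 with siControl and at -0.98, -0.56 and -0.60 against 0.13, 0.28 and 0.09 with siGALNT1. Here the siControl arrays overlapped, through PLC5 replicate 2 (0.58, adjusted p = 0.175 from limma), and the siGALNT1 arrays did not (0.88, adjusted p = 0.0418). The latter call of NDUFA5 was lost with the slide as a block (adjusted p = 0.0587).

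In the membrane arm, NDUFC1, a small accessory subunit, stood at 0.09, -0.02 and 0.11 in HA22T and at 1.05, 1.14 and 0.94 in PLC5 with siControl. With siGALNT1 it stood at -0.75, -0.29 and 0.20 against 0.88, 1.34 and 0.76, so the lines were apart in both comparisons, by 0.98 (SE 0.28, adjusted p = 0.0254 from limma) and 1.27 (SE 0.28, adjusted p = 0.00660). With the slide as a block the siControl call of NDUFC1 was lost (adjusted p = 0.0950) and the siGALNT1 call held. NDUFB10 stood at 3.78, 3.46 and 3.95 against 5.31, 4.65 and 4.86 with siControl and at 4.25 and 4.30 against 5.04, 4.72 and 4.68 with siGALNT1. The lines did not overlap in either, but the difference was 1.21 (SE 0.26, adjusted p = 0.00754 from limma) in the first and 0.54 (SE 0.29, adjusted p = 0.218) in the second. NDUFB3 stood at -0.85, -0.75 and -0.98 against 0.12, -0.53 and -0.34 and then at -1.67, -1.32 and -0.89 against -0.27, -0.10 and -0.74. It was higher in PLC5 on every array, by 0.61 (adjusted p = 0.168 from limma) with siControl and by 0.92 (adjusted p = 0.0397) with siGALNT1.

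Outside complex I, 1 gene of complex II and 1 of complex IV were called. SDHC, a membrane anchor of succinate dehydrogenase that holds its heme with SDHD, stood at 0.69, 0.07 and 0.17 in HA22T and at 1.09, 1.10 and 1.20 in PLC5 with siControl, and at 0.19, -0.01 and 0.22 against 1.31, 1.49 and 0.90 with siGALNT1. The lines did not overlap, and the difference was 0.82 (SE 0.25, adjusted p = 0.0379 from limma) and 1.10 (SE 0.25, adjusted p = 0.00879). With the slide as a block the siControl call of SDHC was lost (adjusted p = 0.0951) and the siGALNT1 call held. The other 2 SDHC probes were also higher in PLC5 but were not called, at 0.44 and 0.54 with siControl and at 0.73 and 0.68 with siGALNT1. The other 3 subunits of complex II did not pass in either comparison: the flavoprotein SDHA was at -0.37 and -0.10, the iron-sulfur protein SDHB at -0.57 and -0.41, and SDHD at -0.03 and 0.47, with siControl and siGALNT1 in that order.

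COX5A, which sits on the matrix side of complex IV, stood at 1.19 and 1.07 in HA22T and at 2.15, 2.35 and 2.29 in PLC5 with siControl, and at 1.10, 1.27 and 1.20 against 1.75, 2.52 and 2.23 with siGALNT1. The lines were apart on every array, by 1.14 (SE 0.28, adjusted p = 0.0152 from limma) and 0.98 (SE 0.25, adjusted p = 0.0185), and its second probe gave 1.18 and 1.56 (adjusted p = 0.0172 and 0.00350 from limma). With the slide as a block COX5A, read from the first probe, lost both calls, at 0.87 (adjusted p = 0.0727) and 0.71 (adjusted p = 0.0966). The other 9 genes of complex IV, and all 7 of complex III and CYCS, were not called. Over complex III the differences ran from -0.76 (CYC1) to 0.09 (UQCRC2) with siControl and from -0.54 (UQCRQ) to 0.48 (UQCRFS1) with siGALNT1. Over the rest of complex IV the lowest was COX6C, a small nuclear subunit, at -0.81 and -0.53 (adjusted p = 0.0504 and 0.177 from limma), and the highest was COX7B, another small subunit, at 0.50 and 0.87 (adjusted p = 0.267 and 0.0550 from limma). CYCS, the mobile electron carrier, was at -0.26 and 0.02, and 2 of its other probes gave 0.03 and 0.76 with siControl, so its direction was not settled.

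**Figure D3:**
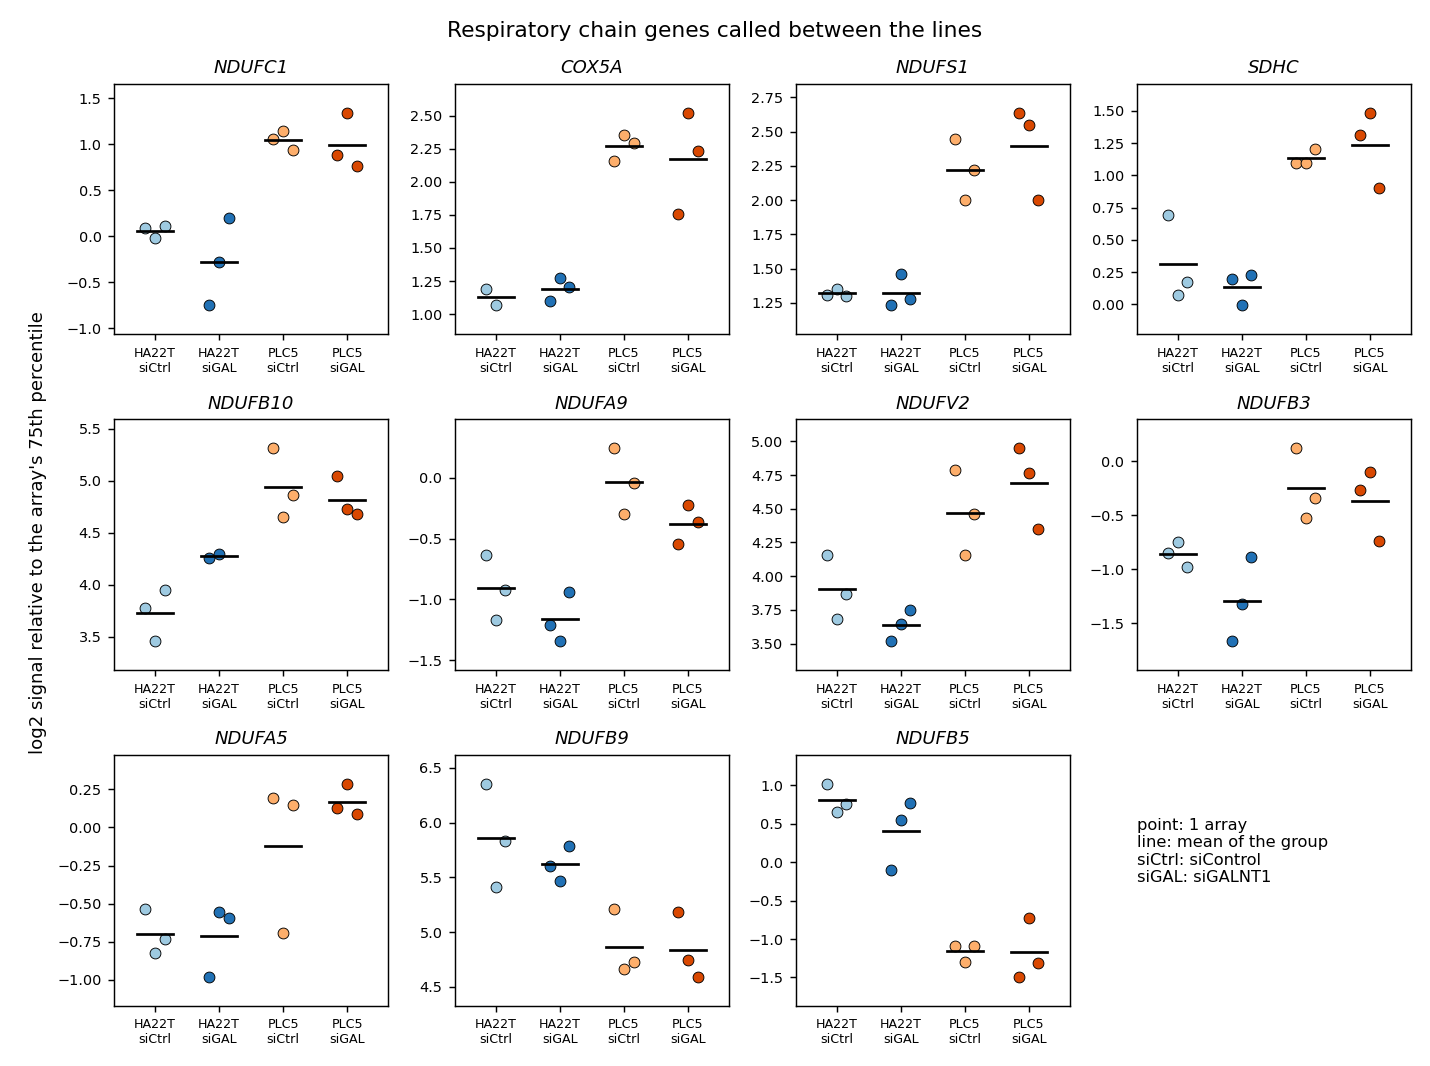
Log2 signal relative to the 75th percentile of the array (vertical axis, scaled for each gene) of the 11 genes called between the lines, with 1 point per array, a line at the mean of each group and 3 arrays a group except where a flagged spot left 2 (COX5A in HA22T siControl, NDUFB10 in HA22T siGALNT1). NDUFB5 and NDUFB9 are lower in PLC5 and the other 9 genes are higher.

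Set side by side over the 48 genes, the line difference had the same sign with siControl and siGALNT1 in 40, against 78.1% of all probes counted in both. Across the genes Pearson's r between both sets of differences was 0.947, against 0.907 across all such probes, given as a description because genes are not independent replicates and share their arrays. The groups did not overlap in 19 of the 48 genes with siControl (42.4% of counted probes) and in 18 with siGALNT1 (40.7%), and 12 genes were apart in the same direction in both, 9 higher in PLC5 and 3 lower, where 28.5% of all probes counted in both were. Besides the genes above these were NDUFS4 and COX7B, higher, and NDUFA13, lower. NDUFS4, an accessory subunit of the NADH-oxidizing module, was at 0.46 and 0.81, and NDUFA13, which lies in the peripheral arm and crosses the membrane, was at -0.79 and -0.61 (adjusted p = 0.0976 and 0.181 from limma).

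The median line difference of the 48 genes was 0.00 with siControl (all named genes -0.10) and 0.26 with siGALNT1 (all named genes -0.07). The latter was 0.08 without HA22T siGALNT1 replicate 1 and 0.46 with the slide as a block, and with the percentile taken without flagged spots it was 0.03, with 24 genes higher and 24 lower and a median of -0.29 over all named genes. With siControl the slide as a block gave 0.17, and that percentile gave -0.11 (all named genes -0.21). By complex it was 0.20 and 0.49 in complex I, -0.20 and 0.19 in complex II, -0.36 and 0.11 in complex III and 0.12 and 0.36 in complex IV, with siControl and siGALNT1 in that order. Each complex held both signs in both comparisons. The calls depended on single arrays: leaving out 1 siControl array brought the number called from 8 to between 2 and 5 (2 without PLC5 replicate 3, 3 without HA22T replicates 2 or 3, 4 without HA22T replicate 1 and 5 without PLC5 replicates 1 or 2). NDUFB5 and NDUFB10 were called in all 6 of these. The siControl call of NDUFC1 was lost in each of the 6, and so were the siGALNT1 calls of NDUFA9 and NDUFA5 when 1 siGALNT1 array was left out. Leaving out PLC5 siGALNT1 replicate 1 or 2 brought the number with siGALNT1 from 9 to 5, leaving out 1 HA22T siGALNT1 array brought it to 6, and without any of the 6 siGALNT1 arrays in turn NDUFB5, NDUFC1, NDUFS1 and SDHC were called. With the slide as a block, 3 genes were called with siControl (NDUFB5, NDUFB10 and NDUFS1), where 17.4% of counted probes were, and 10 with siGALNT1, where 19.9% were. Of the 9 genes called with siGALNT1 before, NDUFA9, NDUFA5 and COX5A dropped out under the block, and NDUFA1, NDUFA2, NDUFS4 and COX7B came in.

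**Figure D4:**
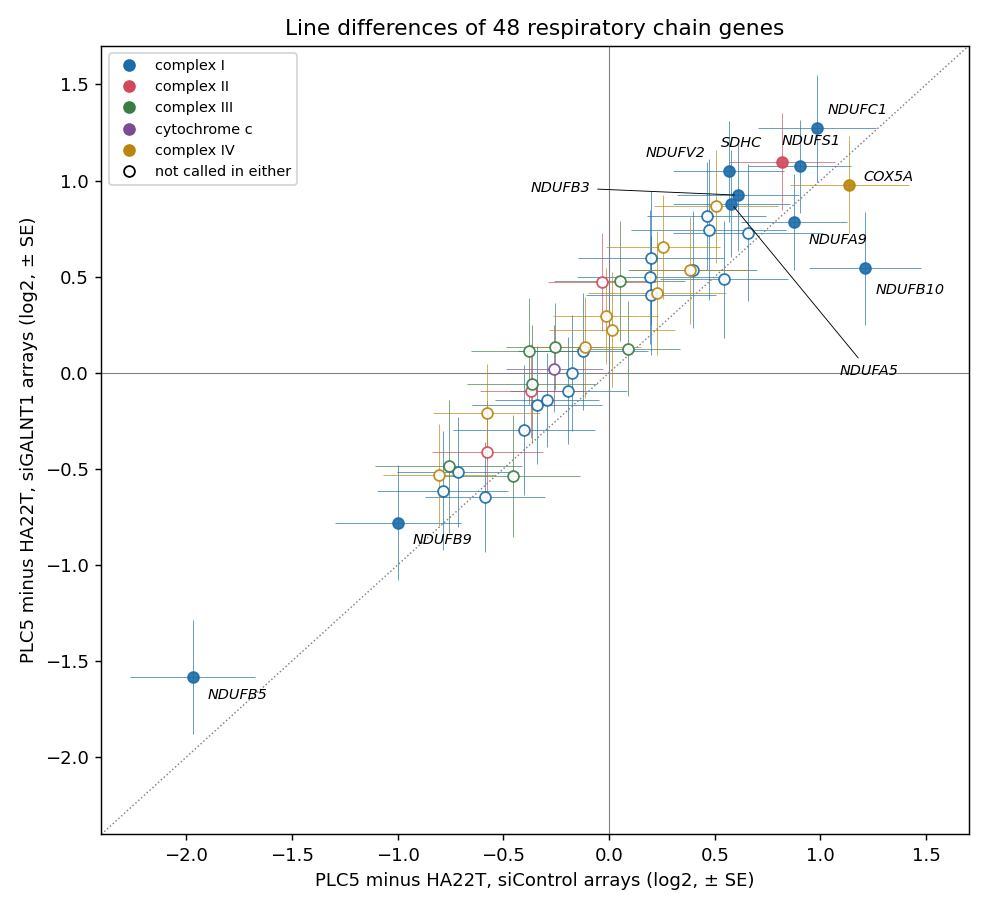
Difference between PLC5 and HA22T (log2) on siControl arrays (horizontal axis) and on siGALNT1 arrays (vertical axis) for the 48 genes, colored by complex, filled where called in either comparison, with bars of 1 standard error and a dotted line of equal values. Pearson's r between both sets of differences was 0.947. Of the 48 genes 42 lie above the dotted line, where 63.1% of all named genes do. NDUFB5 is lowest, at -1.97 and -1.58.

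Other genes of respiration were read from lists of the same kind, and 0 of their genes were called in either knockdown comparison. Of 21 further subunits of complexes I to IV, 19 were counted with siControl and 20 with siGALNT1, and 4 were called in each. NDUFA7, an accessory subunit of complex I, was higher in PLC5 in both (1.23 and 1.24), and NDUFB4 of the membrane arm was lower in both (-1.22 and -0.98). Among 18 ATP synthase genes, 3 were called with siControl, 1 higher in PLC5 and 2 lower, and 1 with siGALNT1, higher. With siControl 14 of the 18 were lower in PLC5 (median -0.30), and with siGALNT1 9 were (median 0.03). ATP5F1C, the gamma subunit of the rotor, was higher in PLC5 in both (1.13 and 1.29). Among 43 counted assembly factors, 4 and 5 were called. COX11 and COX20, which serve complex IV assembly, were higher in PLC5 in both (0.91 and 0.81, and 1.33 and 1.78), and ACAD9, which serves complex I assembly, was lower (-1.24 and -1.02). Of 20 regulators of mitochondrial biogenesis, 4 and 2 were called, all lower in PLC5, among them YY1 (-0.98 and -0.89) and MYC (-1.84 and -1.82) in both and TFAM, which packages mitochondrial DNA, with siControl (-1.38). Of 18 enzymes of the TCA cycle and of pyruvate dehydrogenase, 3 were called in each comparison, all higher in PLC5: DLAT (2.22 and 2.84) and PDHA1 (1.32 and 1.43) of pyruvate dehydrogenase and SUCLG2 (1.38 and 1.75) of succinyl-CoA ligase. The shares called in either direction, between 5.56% and 21.1% over these lists, were below those of all counted probes. By direction this did not hold throughout. Of the regulators 20% and 10% were called lower, with siControl and siGALNT1 in that order, where 11% and 9.79% of counted probes were. Of the TCA cycle and pyruvate dehydrogenase enzymes 16.7% were called higher in each, where 11% and 13.1% of counted probes were.

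The 6 genes with the NRF1 core had a median difference of -0.11 in the HA22T knockdown and 0.06 in the PLC5 knockdown, and the 36 with a promoter lacking it had -0.16 and 0.05. Between the lines the 6 were at -0.11 and 0.19 and the 36 at 0.14 and 0.41, with siControl and siGALNT1 in that order. NDUFA5 was the only one of the 6 that was called, with siGALNT1.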

How the data were processed

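The intensity values deposited by the authors are processed signals of Agilent Feature Extraction (version 10.5.1.1 per the labels), with background subtracted by the software, with spot flags. A log2 table that the authors provided for each probe (deposited with column medians of -2.71 to -2.46) served as an alternative. Its 75th percentiles lie near 0, but its scaling is not given in the sources used here.

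From the processed signal, log2 values minus the 75th percentile of each array (all spots that are not controls) were computed. Non-uniform spots were omitted and replicate spots averaged by probe. Of 50599 probes, 28174 matched a RefSeq gene by transcript accession. The 4 groups were fitted together with limma 3.58.1 in R 4.3.3. Exact permutation tests were two-sided. The fit was tested on simulated data with independent noise on each array and with changes between the lines only. That test therefore does not cover deviations shared across an array or changes with knockdown.

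The members and lists were chosen with earlier results of these data known. Every member may be named, and array values are given for genes called between the lines and for the 4 largest rises and falls in each knockdown. Genes outside the members are the target and list genes with an adjusted p below 0.05, at most 3 a list in each direction. Summed marker levels are log2 sums over the brightest probe of each marker.

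Replicate numbers were checked for pairing. Between siControl and siGALNT1 arrays of one number, the deviations from group means had correlations of 0.513, 0.266 and 0.325 in HA22T, each above 0.1, and 0.570, 0.0120 and 0.179 in PLC5. Over the 48 genes alone they were 0.497, 0.333 and 0.345 in HA22T and 0.673, 0.545 and 0.552 in PLC5. Over all probes, arrays of unlike number had correlations of -0.439 to 0.173 in HA22T and -0.483 to 0.444 in PLC5. The decision was made on all probes, so only HA22T was read as paired, from the values only. The HA22T intervals and p-values above nevertheless come from the fit and permutations without pairing, except where a block is named. The block within each line was fitted in both lines and called 0 of the 48 genes in either.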

Additional observations from a re-analysis of the deposited data

How the results depend on the processing

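In both knockdown comparisons 0 of the 48 genes were called under every alternative, namely other background correction, scaling, filters, blocks and sets of arrays. The number past the criterion of the study in HA22T moved from 0 to 1 (NDUFB10) with normexp background correction, with the replicate block within each line and with the percentile taken without flagged spots. A replicate block over both lines left 8 members called with siControl and 8 with siGALNT1. Between the lines with siControl, 4 members were called with median scaling, 3 with the slide as a block and 10 with normexp or with the percentile without flagged spots, against 8. Leaving out 1 siControl array gave 2 to 5. Counts up to 9 came from leaving out 1 siGALNT1 array, which bears on this comparison only through the shared estimate of the spread. With siGALNT1 the count was 6 with median scaling, 10 with the slide as a block, 11 with normexp, 13 with quantile normalization and 5 to 9 when single arrays of any group were left out, against 9. Signs turned only for knockdown differences among the genes named, and the largest rises in PLC5, UQCRFS1 (0.33) and NDUFA5 (0.29), were among them. In HA22T, NDUFA10 was -0.0717 with normexp and -0.0940 to 0.35 without single arrays, and COX5A was -0.0405 in the deposited log2 table and -0.0257 with non-uniform spots kept. In PLC5, leaving out single arrays gave -0.44 to 0.0206 for NDUFA6, -0.40 to 0.17 for NDUFB2, -0.39 to 0.0580 for UQCRQ, -0.00229 to 0.44 for NDUFA5 and -0.0110 to 0.57 for UQCRFS1. Line differences of called genes kept their sign throughout. The cause of these moves was not tested beyond the change each alternative makes. The precision is set by 3 arrays a group, and every probe used had signal well above background on nearly all of its arrays.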
